A study of Homo sapiens with 6 samples.

Results

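FOXO factors and the genes of the insulin signalling feedback were examined as 10 of the 20824 genes in an RPKM table from 21NT breast cancer cells. The 10 genes are the transcription factors FOXO1, FOXO3 and FOXO4, the receptors INSR and IGF1R, the adaptors IRS1 and IRS2, the PI3K inhibitor PIK3IP1 and the FOXO targets FBXO32 and BCL6. They were chosen by gene symbol, with the differences between the TBX3 isoform lines and the control line already known, so those differences are given as a description of the selected genes and without a test. The difference between the lines of the 2 TBX3 isoforms is given with its test. It uses the same isoform libraries as those known differences, so it is not independent of the choice of genes.

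21NT is a human mammary tumour line used as a model of ductal carcinoma in situ. RNA-Seq was conducted on 21NT cells stably transfected with pcDNA3.1 that was empty (EV) or carried TBX3iso1 or TBX3iso2, splice isoforms of the T-box repressor TBX3, with 2 libraries for each of the 3 lines. Each line was 1 transfected pool kept under G418. All lines were grown in medium with insulin, EGF, hydrocortisone and serum, so insulin and a glucocorticoid were present in the control cultures too. No source states that the 2 libraries of a line came from separate cultures, and the spread between them may be technical. A difference between the lines cannot be told apart from a difference between the 3 transfected pools.

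Insulin and IGF-1 bind INSR and IGF1R, which phosphorylate IRS1 and IRS2, and these recruit PI3K. PI3K activates AKT, and AKT phosphorylates the FOXO proteins, which then leave the nucleus and no longer activate their targets. When the pathway is quiet, nuclear FOXO raises transcription of INSR, IRS2 and PIK3IP1 as well as of genes for atrophy, cell death and cell cycle arrest, which is the feedback in the name. FOXO activity is set largely by phosphorylation and location, and RNA-Seq measures neither.

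The FOXO proteins bind the insulin response core TGTTTT, whose complement reads AAAACA. RefSeq promoter windows were found for 9 of the 10 genes, and the core was searched on both strands in the 250 bases before each start. It occurred in 6 of the 14 windows of these genes, belonging to FOXO1, FOXO3, IRS2, PIK3IP1 and BCL6, and in 17.3% of all 35116 windows. The stretches of FOXO1, IRS2 and PIK3IP1 are shown because they lie upstream of these genes and because FOXO1 was lower with both isoforms while IRS2 and PIK3IP1 separated the isoforms. Each is written 5′ to 3′ on the strand of its gene (the minus strand) in GRCh37, with the core in capitals.
FOXO1, chr13:41240922-41240981: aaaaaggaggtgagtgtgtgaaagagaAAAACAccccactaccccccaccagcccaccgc
IRS2, chr13:110438938-110438997: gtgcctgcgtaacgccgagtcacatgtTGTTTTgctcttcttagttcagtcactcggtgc
PIK3IP1, chr22:31688720-31688770: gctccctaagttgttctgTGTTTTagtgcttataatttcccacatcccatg
In GENCODE for GRCh37 the minus-strand genes FOXO1, IRS2 and PIK3IP1 span chr13:41129804-41240778, chr13:110405042-110438930 and chr22:31677580-31688520, so the 3 stretches lie outside the genes, upstream of their 5′ ends. The core began 176, 40 and 232 bases before the start of the respective window's transcript. The longer FOXO element GTAAACA was in 2.98% of all windows and in 0 windows of these genes. The T-box half-site GGTGTGA, a sequence read by TBX3 and its relatives, was in 2.76% of all windows and likewise in 0 of theirs. A match is a description of the letters only, and TBX3 or FOXO binding was not analysed here. FBXO32 had no window and was not searched. The paper lists FBXO32 among genes changed in RNA-Seq, with overlapping promoter-array binding sites of both TBX3 isoforms and a T-box element. The absence of GGTGTGA from the 250 bases searched therefore does not show that these genes lack T-box sites.

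The 6 libraries held 43176600 to 54512400 alignments. Levels are in RPKM, which is scaled to transcript length, so levels may be compared between genes. Total TBX3, read as the check of the labels, was 8.52 and 8.24 RPKM in EV, 13.1 and 11.4 RPKM with TBX3iso1, and 17.5 and 15.5 RPKM with TBX3iso2. The mean was 1.46 times that in EV with TBX3iso1, short of 1.5-fold, and 1.97 times with TBX3iso2. A total over the gene does not tell the isoforms apart. Of 11 markers of mammary epithelium, 9 were above 1 RPKM in every library, with summed levels of 2668 to 3395 RPKM. KRT14 was near 0 in all libraries, and the basal factor TP63 was at 3.04 and 3.66 RPKM in EV and between 0.243 and 0.332 RPKM with either isoform. Among markers of other cell types, PTPRC was at most 0.0102 RPKM and CDH5 at most 0.0830 RPKM, but CD68 was at 44.1 and 43.2 RPKM in EV and 34.0 to 34.3 RPKM with either isoform, and COL1A1 at 4.16 and 4.44 RPKM in EV and 6.86 to 7.84 RPKM with either isoform. The summed levels were 4.60 to 8.69 RPKM over 6 fibroblast markers, 34.0 to 44.2 RPKM over 4 leukocyte markers and 1.17 to 7.56 RPKM over 3 endothelial markers. The last range came from PECAM1, at 7.12 and 7.46 RPKM in EV and 1.14 to 1.37 RPKM with either isoform. The parts of TP63, CD68, COL1A1 and PECAM1 in the results below were not tested.

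All 3 FOXO factors had lower levels with both isoforms than in EV, and the isoform lines lay closer to each other than to EV. FOXO1, the factor best known for insulin-controlled metabolism, was at 3.98 and 4.15 RPKM in EV, 1.74 and 1.51 RPKM with TBX3iso1, and 1.71 and 1.33 RPKM with TBX3iso2. Both EV libraries stood above all 4 isoform libraries, while the isoform libraries overlapped. The mean with TBX3iso1 was 40.0% of that in EV, and with TBX3iso2 37.4%. On the log2(RPKM + 0.1) scale, on which all differences are given, the differences from EV were -1.27 ± 0.15 (SE) and -1.37 ± 0.15.

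FOXO3, a factor tied to stress resistance and cell death, was the most abundant of the FOXO genes, at 19.8 and 20.0 RPKM in EV. It was at 12.4 and 11.4 RPKM with TBX3iso1 and at 11.3 and 9.27 RPKM with TBX3iso2. The EV libraries again lay above all others, and every TBX3iso1 library lay above every TBX3iso2 library. The differences from EV were -0.74 ± 0.10 and -0.96 ± 0.10. FOXO4, an X-linked member of the family, was low, at 0.722 and 0.711 RPKM in EV, 0.329 and 0.211 RPKM with TBX3iso1, and 0.291 and 0.191 RPKM with TBX3iso2. Its mean over the 6 libraries was under the 0.5 RPKM required for testing. In a fit without that filter its differences from EV were -1.16 ± 0.24 and -1.28 ± 0.24.

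**Figure D1:**
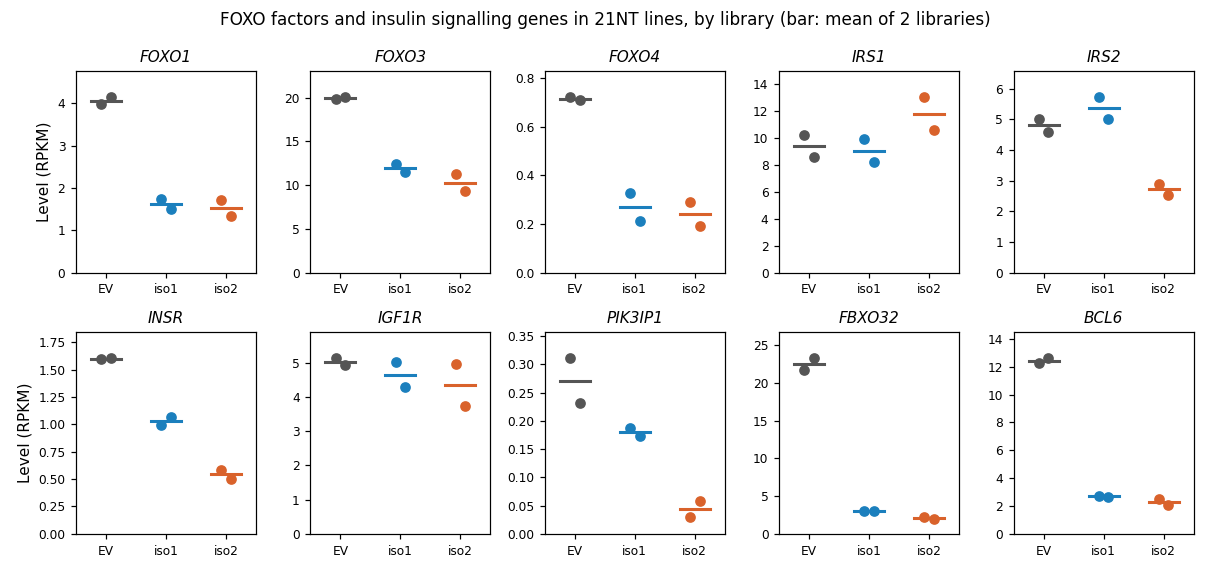
Levels of the 10 genes in RPKM on linear axes from 0, with 1 point per library and a bar at the mean of the 2 libraries of EV, TBX3iso1 (iso1) and TBX3iso2 (iso2). FOXO1, FOXO3, FOXO4, FBXO32 and BCL6 are lower with both isoforms, IRS2 is lower with TBX3iso2 alone, and INSR steps down from 1.60 RPKM in EV to 1.03 and 0.545 RPKM.

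Among the receptors, INSR and IGF1R differed in pattern. INSR, the insulin receptor, was at 1.60 RPKM in both EV libraries, at 0.997 and 1.07 RPKM with TBX3iso1, and at 0.587 and 0.502 RPKM with TBX3iso2. The 3 lines did not overlap, and the order was EV, TBX3iso1, TBX3iso2. The differences from EV were -0.59 ± 0.14 and -1.40 ± 0.14. The first was just past 1.5-fold, and its call (on fold and adjusted p together) was lost in 7 of 16 alternative analyses, over all of which the difference ran from -0.63 to -0.36. Those included leaving out EV replicate 1 or EV replicate 2, which left the difference at -0.59, and leaving out TBX3iso1 replicate 1, which brought it to -0.54. IGF1R, the receptor for IGF-1 and IGF-2, was at 5.13 and 4.92 RPKM in EV, 5.03 and 4.28 RPKM with TBX3iso1, and 4.96 and 3.73 RPKM with TBX3iso2. Its 3 lines overlapped, and its differences from EV were -0.11 ± 0.15 and -0.22 ± 0.15.

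The 2 adaptors also parted. IRS2, the adaptor whose gene FOXO activates, was at 5.01 and 4.59 RPKM in EV and at 5.73 and 5.01 RPKM with TBX3iso1. With TBX3iso2 it was at 2.89 and 2.54 RPKM, below all other libraries. The differences from EV were 0.16 ± 0.12 with TBX3iso1 and -0.80 ± 0.12 with TBX3iso2. IRS1, the paralogous adaptor, was at 10.2 and 8.58 RPKM in EV, 9.89 and 8.20 RPKM with TBX3iso1, and 13.0 and 10.6 RPKM with TBX3iso2. Both TBX3iso2 libraries were the highest of the 6, while EV and TBX3iso1 overlapped. Its differences from EV were -0.06 ± 0.14 and 0.32 ± 0.14.

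PIK3IP1, a membrane protein that inhibits the catalytic subunit of PI3K, was scarce. It was at 0.311 and 0.232 RPKM in EV, 0.188 and 0.173 RPKM with TBX3iso1, and 0.0295 and 0.0587 RPKM with TBX3iso2. The 3 lines did not overlap, but these levels correspond to at most 16.9 alignments per kilobase of transcript in EV and to no more than 2.54 in the TBX3iso2 libraries, and the gene was not tested. Without the filter its differences from EV were -0.40 ± 0.17 and -1.36 ± 0.17.

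The 2 FOXO targets showed the largest differences from EV among the 10 genes on the log2(RPKM + 0.1) scale, which understates the change of the scarce PIK3IP1. FBXO32, the atrogin-1 subunit of a ubiquitin ligase that FOXO induces in wasting muscle, was at 21.8 and 23.3 RPKM in EV, the highest mean of the 10 genes. It was at 2.98 and 3.05 RPKM with TBX3iso1 and at 2.27 and 1.99 RPKM with TBX3iso2. The mean in EV was thus 7.48 times that with TBX3iso1 and 10.6 times that with TBX3iso2, and the differences were -2.86 ± 0.10 and -3.34 ± 0.10. BCL6, a zinc finger repressor known from germinal centre B cells and also expressed in mammary epithelium, was at 12.3 and 12.6 RPKM in EV, 2.74 and 2.65 RPKM with TBX3iso1, and 2.47 and 2.08 RPKM with TBX3iso2. Its differences from EV were -2.16 ± 0.11 and -2.40 ± 0.11. For both targets the EV libraries lay far above the others and every TBX3iso1 library lay above every TBX3iso2 library.

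**Figure D2:**
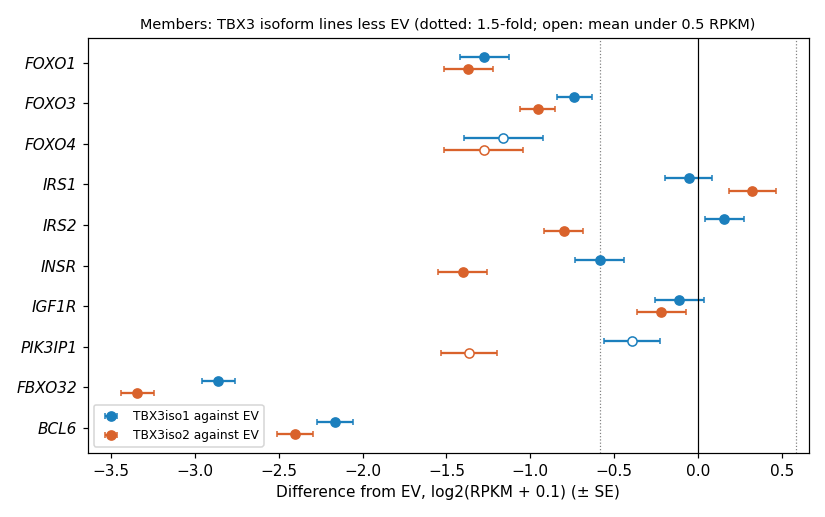
Difference of each line from EV on the log2(RPKM + 0.1) scale, with bars of ± 1 SE from limma; dotted lines mark 1.5-fold and open points mark FOXO4 and PIK3IP1, which were under the mean of 0.5 RPKM. FBXO32 and BCL6 lie farthest from 0, IGF1R and IRS1 lie near 0, and the isoforms separate at IRS2, INSR and PIK3IP1.

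Of the 8 genes that passed the filter on low values, 5 with TBX3iso1 (FOXO1, FOXO3, INSR, FBXO32 and BCL6) and 6 with TBX3iso2 (those and IRS2) were lower by the thresholds used across the table, an adjusted p under 0.05 in limma and a fold change over 1.5. None of the 8 was higher. Over all 12805 genes tested, 21.5% were called with TBX3iso1 (7.46% higher and 14.1% lower) and 21.2% with TBX3iso2 (8.94% higher and 12.3% lower). The genes were selected on these same differences, and nothing is read from their share. The median difference was -0.66 with TBX3iso1 and -1.16 with TBX3iso2 over the 8 genes, and -0.05 and -0.00 over all genes tested. Quantile normalization changed the balance of calls over the whole table from 955 higher and 1802 lower to 1259 higher and 1313 lower with TBX3iso1. The calls of FOXO1, FBXO32 and BCL6 held in all 17 alternatives for both isoforms.

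Transcript length moved with the differences. The median difference between TBX3iso1 and EV was 0.07 in the quintile of tested genes with the shortest transcripts and -0.18 in the quintile with the longest, and for TBX3iso2 it was 0.10 and -0.12. Replicates of a line differed with length too. Replicate 1 less replicate 2 had medians of -0.17 and 0.23 in the same quintiles with TBX3iso2. The medians were -0.16 and 0.14 with TBX3iso1, and 0.01 and 0.04 in EV. The longest quintile began at 6078 bases and held 6 of the 8 tested genes of the set. With this trend removed, in an analysis added after seeing the data, FOXO3 differed by -0.58 between TBX3iso1 and EV, short of 1.5-fold. The INSR call with TBX3iso1 was lost there as well. Replicate 2 had the lower level for 9 of the 10 genes in TBX3iso2, 8 in TBX3iso1 and 5 in EV, against 51.5%, 49.7% and 60.4% of all tested genes.

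The comparison of TBX3iso2 with TBX3iso1 asked where the isoforms differ. IRS2 and INSR were lower with TBX3iso2, whereas no difference past the thresholds was found for the 6 other tested genes. IRS2 was 50.6% of its TBX3iso1 level (log2 difference -0.96 ± 0.12, adjusted p = 0.0026, limma with Benjamini-Hochberg adjustment). INSR was 52.7% of it (-0.82 ± 0.14, adjusted p = 0.011, limma). Over all tested genes 6.29% were called, 3.47% higher and 2.82% lower, against 2 of 8 here. The isoform libraries were also part of the comparisons known when the genes were chosen, and nothing is read from this share. The INSR call was lost in 3 of 16 alternatives, among them leaving out TBX3iso1 replicate 2 (-0.77). The IRS2 call was lost in 1 of 17, a fit without moderated variances.

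FBXO32 was lower with TBX3iso2 by less than 1.5-fold (-0.48 ± 0.10, adjusted p = 0.018, limma). The 95% intervals of the difference were -0.44 to 0.25 for FOXO1, -0.46 to 0.02 for FOXO3, -0.45 to 0.23 for IGF1R, -0.49 to 0.01 for BCL6 and 0.05 to 0.70 for IRS1. The adjusted p-values of these 5 genes in limma were 0.71, 0.20, 0.68, 0.18 and 0.12. The intervals of FOXO1, FOXO3, IGF1R and BCL6 leave out a drop as large as that of IRS2, while that of IRS1 reaches past a 1.5-fold rise. In the fit without a filter PIK3IP1 differed by -0.97 ± 0.17 and FOXO4 by -0.12 ± 0.24.

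**Figure D3:**
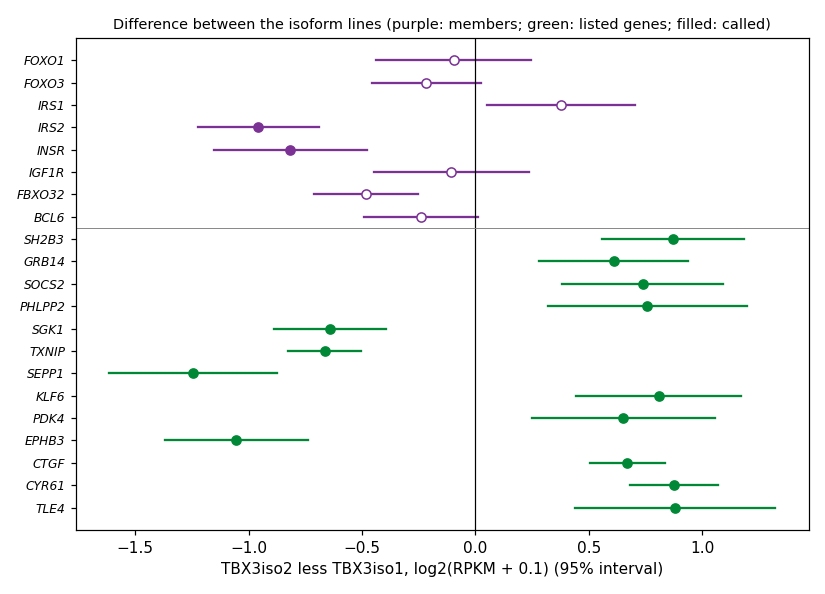
Difference between TBX3iso2 and TBX3iso1 on the log2(RPKM + 0.1) scale with 95% intervals from limma, for the 8 tested genes of the set (purple, above the line) and for the listed pathway and target genes called between the isoforms (green). Filled points passed both thresholds; IRS2 at -0.96 and INSR at -0.82 are the only filled purple points.

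The rest of the pathway was read from textbook lists, in which the 10 genes were left out. The lists were written with earlier results of these data known. Of 27 tested ligands, receptors and adaptors, 2 rose and 5 fell with TBX3iso1, 5 rose and 5 fell with TBX3iso2, and the list medians were -0.16 and -0.14. The called shares were 25.9% and 37.04%, beside 21.5% and 21.2% of all tested genes. GRB7, an adaptor that lies beside ERBB2, fell with both isoforms, from 179.9 and 184 RPKM in EV to 76.7 RPKM in both TBX3iso1 libraries and to 92.4 and 88.6 RPKM with TBX3iso2. SOS2, an exchange factor for RAS, fell by 0.99 and 0.90, and CBLB, a ubiquitin ligase for receptors, by 0.81 and 0.99 on the log2 scale. SOCS2, an inhibitor of cytokine and growth hormone signalling, rose by 0.64 and 1.38, although the first call was lost without EV replicate 2.

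SH2B3, SOCS2 and GRB14 were higher with TBX3iso2 than with TBX3iso1, and 0 of the 27 listed genes were called lower in limma, with 1 lower at an unadjusted p under 0.05 and 0 called in either direction by a linear model without moderation. SH2B3, the adaptor LNK, was at 2.84 and 2.40 RPKM with TBX3iso1 and at 5.34 and 4.42 RPKM with TBX3iso2 (0.87 ± 0.14, adjusted p = 0.0065, limma). SOCS2 differed by 0.74 ± 0.15 (adjusted p = 0.019, limma), a call lost without either TBX3iso1 library. GRB14, which binds and inhibits the insulin receptor, differed by 0.61 ± 0.14 (adjusted p = 0.028, limma), a call lost in 12 of 16 alternatives, including the removal of either EV library, either TBX3iso1 library or TBX3iso2 replicate 2.

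Of 52 tested genes of the PI3K, AKT and mTOR pathway, 1 rose and 8 fell with TBX3iso1, 3 rose and 7 fell with TBX3iso2, and the medians were -0.26 and -0.21. The called shares, 17.3% and 19.2%, lay near the 21.5% and 21.2% of all tested genes. DDIT4, the stress-induced mTORC1 inhibitor REDD1, fell from 363 and 371 RPKM in EV to 207 and 214 RPKM with TBX3iso1 and to 139 and 163 RPKM with TBX3iso2. SGK1, a kinase that phosphorylates FOXO3, fell from 6.86 and 7.66 RPKM to 4.33 and 4.62 RPKM and to 3.00 and 2.67 RPKM. RICTOR, the mTORC2 scaffold, fell by 0.74 and 1.17 and TSC1, which restrains mTORC1, by 0.75 and 0.65 on the log2 scale. The RICTOR call with TBX3iso1 was lost without either EV library or TBX3iso1 replicate 2, and the TSC1 call with TBX3iso2 without EV replicate 2 or TBX3iso2 replicate 2. With the length trend described above removed, the calls of SGK1, RICTOR and TSC1 with TBX3iso1 were lost, at -0.58, -0.54 and -0.55.

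AKT1 itself, named here after its values were seen, was at 71.4 and 67.4 RPKM in EV, 70.9 and 66.5 RPKM with TBX3iso1, and 71.6 and 73.6 RPKM with TBX3iso2. Between the isoforms SGK1 was lower with TBX3iso2 (-0.64 ± 0.11, adjusted p = 0.0084, limma), a call lost without TBX3iso2 replicate 2. PHLPP2, a phosphatase that removes phosphate from AKT, was higher (0.76 ± 0.19, adjusted p = 0.035, limma), a call lost in 9 of 17 alternatives, including the removal of either EV library, either TBX3iso1 library or TBX3iso2 replicate 1.

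Among 23 tested regulators of FOXO and 14-3-3 proteins, 1 fell with TBX3iso1 and 2 rose and 2 fell with TBX3iso2, with medians of 0.03 and 0.08. The called shares were 4.35% and 17.4%, beside 21.5% and 21.2% of all tested genes. The gene that fell with both was FOXO6, the remaining FOXO factor. It was at 5.45 and 5.06 RPKM in EV, 0.871 and 0.601 RPKM with TBX3iso1, and 1.08 and 0.972 RPKM with TBX3iso2. The differences were -2.70 ± 0.17 and -2.25 ± 0.17. They are given as a description, because the list was written with earlier results of these data known. Between the isoforms 0 of the 23 genes were called in limma, while 6 were higher and 2 lower at an unadjusted p under 0.05. Leaving out TBX3iso1 replicate 1 raised the count with TBX3iso1 to 3 genes, and leaving out EV replicate 2 or TBX3iso2 replicate 2 lowered that with TBX3iso2 to 2.

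Of 56 tested FOXO targets from the textbook list, 22 fell and 3 rose with TBX3iso1, and 23 fell and 4 rose with TBX3iso2, with medians of -0.24 and -0.42. The called shares were 44.6% and 48.2%, beside 21.5% (14.1% lower and 7.46% higher) and 21.2% (12.3% lower and 8.94% higher) of all tested genes. This list too was written with earlier results of these data known, and its shares were not tested. The 2 comparisons share the EV libraries. The genes lower with both numbered 20 and those higher with both 3. Among the 20, KLF15 passed the filter on low values only through its EV level. It was at 0.967 and 1.01 RPKM in EV and at 0.233 to 0.276 RPKM with either isoform. SEPP1, the plasma selenium carrier selenoprotein P, fell from 10.7 and 10.5 RPKM in EV to 2.17 and 2.77 RPKM with TBX3iso1 and to 0.850 and 1.12 RPKM with TBX3iso2. TNFSF10, the death ligand TRAIL, fell from 4.46 and 4.19 RPKM to 0.791 and 0.913 RPKM and to 0.810 and 0.483 RPKM. YPEL3, a growth suppressor, fell by 1.57 and 1.73 on the log2 scale.

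Other genes in the group that fell with both included the cell death genes BCL2L11 and BBC3, the cell cycle inhibitors CDKN2B, CCNG2 and RBL2, the autophagy genes ULK1 and PINK1, the receptors ERBB3 and ESR1, and PDK4, which restrains glucose oxidation. TXNIP, which limits glucose uptake, moved the other way and rose from 24.3 and 22.9 RPKM in EV to 103 and 102 RPKM with TBX3iso1 and to 64.7 and 64.3 RPKM with TBX3iso2. CCND1, which FOXO represses, and the endothelial and T cell factor KLF2 were the other genes higher with both. The cell death gene PMAIP1, the inhibitors CDKN1A and CDKN2D and the autophagy genes BECN1, ULK2, ATG12 and BNIP3 were called with neither isoform. Of these, ATG12 and BNIP3 had higher levels in every isoform library than in EV. SOD2, GADD45A and CAT were also called with neither, although CAT was lower in every isoform library than in EV. The inhibitor CDKN1B was called lower with TBX3iso2 alone, at 88.8% of EV with TBX3iso1 and 61.7% with TBX3iso2. The atrogene TRIM63 was below the filter, at 0.192 and 0.324 RPKM in EV, 0.0138 and 0 RPKM with TBX3iso1, and 0.0412 and 0.0164 RPKM with TBX3iso2, and its differences without the filter were -1.72 ± 0.22 and -1.46 ± 0.22.

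**Figure D4:**
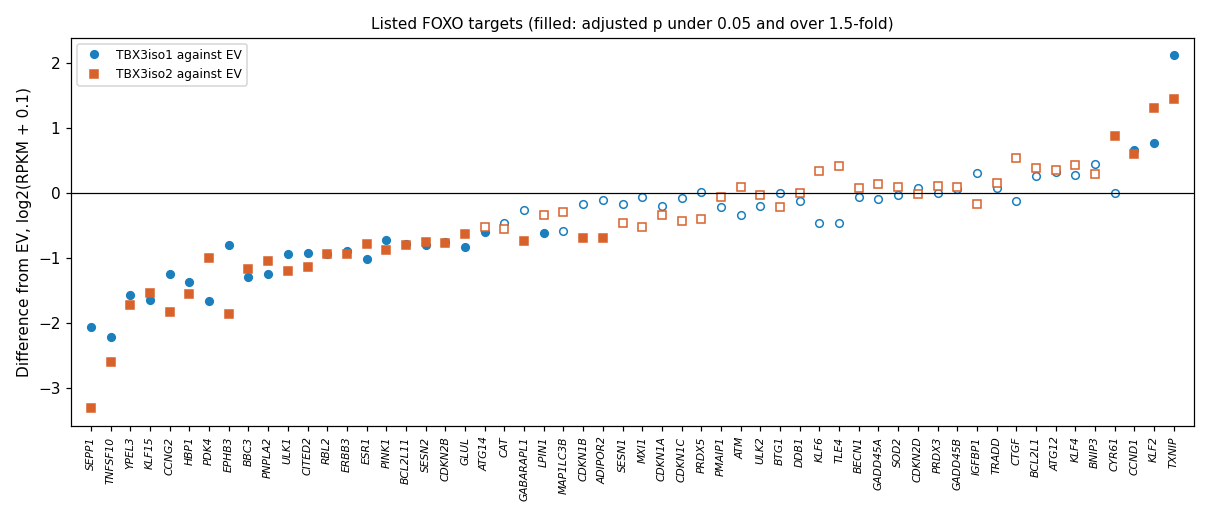
Difference from EV on the log2(RPKM + 0.1) scale for the 56 tested genes of the FOXO target list, ordered by the mean of both comparisons (circles TBX3iso1, squares TBX3iso2; filled where adjusted p was under 0.05 and the change over 1.5-fold). The 20 genes that fell with both isoforms, toward the left, are filled below 0 for both isoforms, and CCND1, KLF2 and TXNIP at the right are filled above 0 for both.

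Between the isoforms 8 of the 56 targets differed, 5 higher and 3 lower with TBX3iso2, and the median was 0.01. These are 14.3% of the list, beside 6.29% of all tested genes (3.47% higher and 2.82% lower). The lower genes were SEPP1 (-1.24 ± 0.16, adjusted p = 0.0031, limma), EPHB3, an ephrin receptor of epithelia (-1.05 ± 0.14, adjusted p = 0.0031, limma), and TXNIP (-0.67 ± 0.07, adjusted p = 0.0014, limma). The matrix-associated genes CYR61 and CTGF were higher, by 0.88 ± 0.08 and 0.67 ± 0.07, as were the corepressor TLE4 by 0.88 ± 0.19, the zinc finger factor KLF6 by 0.81 ± 0.16 and PDK4 by 0.65 ± 0.17. The KLF6 call was lost without TBX3iso2 replicate 1, the TLE4 call without that library or TBX3iso1 replicate 2, and the PDK4 call in 11 of 17 alternatives, among them the removal of any library but TBX3iso2 replicate 2.

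The genes with the profile nearest to FOXO1 and FBXO32 were sought among all tested genes by the Euclidean distance of log2 values centred over the 6 libraries. Nearest to FOXO1 were PLIN4, a lipid droplet protein (distance 0.102), SAMD12 (0.114) and PAN2, which trims poly(A) tails (0.118). PLIN4 was at 3.70 and 3.74 RPKM in EV, 1.57 and 1.46 RPKM with TBX3iso1, and 1.52 and 1.17 RPKM with TBX3iso2. Nearest to FBXO32 were CFI, the complement factor I protease (distance 0.244), BMF, a BH3-only cell death gene (0.330), and SERPINB4 (0.350), whose reads may be shared with its near-identical neighbour SERPINB3. BMF was at 10.4 and 9.98 RPKM in EV, 1.59 and 1.34 RPKM with TBX3iso1, and 1.18 and 1.03 RPKM with TBX3iso2. In these bulk libraries, fewer cells that express a gene and less RNA per cell cannot be told apart.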

How the data were processed

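Stranded mRNA libraries were prepared, sequenced and aligned by the authors to hg19 with TopHat, and the deposited RPKM values (linear, per kilobase of transcript and per library size) were computed by the authors with Partek. Software versions and the gene annotation are not given in the sources used here. The table holds no gene counts, so no counting error per gene was derived.

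Genes averaging 0.5 RPKM or more over the libraries (12805) were fitted in limma 3.58.1 (R 4.3.3) on log2(RPKM + 0.1), with 1 mean per line, variances moderated along a trend and p-values adjusted by Benjamini-Hochberg over those genes. Called genes had an adjusted p under 0.05 and a change over 1.5-fold. With 2 libraries per line, the p-values measure the spread between libraries, which may be technical.

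The 10 genes and the 5 textbook lists (204 genes) were chosen with earlier results of these data known. Named were the 10 genes, TBX3, up to 4 genes per list with the largest mean change among those called alike with both isoforms, listed genes called between the isoforms, and the nearest profiles; further genes in the FOXO target account, AKT1 and the markers were added after their values were seen. Transcript lengths came from GENCODE for GRCh37 and covered 97.3% of tested genes. Promoter windows came from RefSeq (GRCh38.p14) and were placed in GRCh37 by exact match; FBXO32 had none. Alternatives were other pseudocounts, filters, scalings and variance models, a replicate block, removal of each library and, added after seeing the data, removal of the length trend. Figures were drawn with matplotlib 3.10.9.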

Additional observations from a re-analysis of the deposited data

Results flagged for a closer look

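The genes below were listed because their response to the 2 isoforms differed in limma, with an adjusted p under 0.05 and a difference over 1.5-fold between TBX3iso2 and TBX3iso1. In the insulin pathway the log2 difference was -0.96 for IRS2, -0.82 for INSR, 0.74 for SOCS2, 0.87 for SH2B3, 0.61 for GRB14, -0.64 for SGK1 and 0.76 for PHLPP2. Among FOXO targets it was -1.24 for SEPP1, -0.67 for TXNIP, 0.81 for KLF6, 0.65 for PDK4, -1.05 for EPHB3, 0.67 for CTGF, 0.88 for CYR61 and 0.88 for TLE4. Among glucocorticoid targets it was -0.77 for SCNN1A, 0.66 for DUSP1, 0.71 for NFKBIA, 0.70 for CRISPLD2 and -2.49 for MAOA.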

How the results depend on the processing

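Across the 3 comparisons, the alternatives left 2152 single-gene calls as reported, ended 105 and added 14, and turned 0 directions of called genes. Counts below are of called genes. The cause of the changes was not tested.

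With TBX3iso1 against EV, a pseudocount of 1 RPKM gave 1812 genes, 3 adaptors and receptors and 5 PI3K pathway genes. No moderation gave 3 and 5 of these lists. Removing the length trend gave 3 of the 8 tested FOXO and insulin signalling genes and 5 PI3K pathway genes. FOXO regulators numbered 2 with only the lines compared and 2 with the replicate block, and 1 to 3 as each library was left out.

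With TBX3iso2 against EV, a filter at 2 RPKM gave 6 adaptors and receptors. PI3K pathway genes numbered 5 with a pseudocount of 1 RPKM and 4 with no moderation. FOXO regulators numbered 2 with that pseudocount, 2 with quantile normalization, 2 with no moderation and 2 with the length trend removed, and 2 to 6 as each library was left out. 

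Between the isoforms, a pseudocount of 1 RPKM gave 419 genes, a filter at 2 RPKM 504 and no moderation 199. Of the FOXO and insulin signalling genes, 1, 1 and 0 were then called, and 1 to 2 as each library was left out. Adaptors numbered 1 with that pseudocount, 1 with no filter and 0 with no moderation (1 to 3 as each library was left out), and PI3K pathway genes 0, 1 and 0, with 1 when only the lines compared were fitted (1 to 2). FOXO regulators numbered 1 with a pseudocount of 0.01 RPKM, with median-ratio scaling, with quantile normalization and with the length trend removed (0 to 1 as each library was left out). FOXO targets numbered 5 with no filter and 2 with no moderation, and glucocorticoid targets 3 with a pseudocount of 1 RPKM and 3 with no moderation. Quantile normalization gave 351 higher and 435 lower genes in place of 444 and 361, median-ratio scaling 344 and 447, and removal of the length trend 388 and 473.

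Correlations of deviations between equally numbered libraries were 0.22, 0.11 and 0.50 over the pairs of lines, with 2 numbers per line, so the numbers were not taken to pair the samples. The replicate block gave 2838, 2795 and 900 genes in place of 2757, 2720 and 805. The 2 libraries per line, the RPKM unit and the low levels of FOXO4 and PIK3IP1 limit what could be tested.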

Other observations

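The medium held hydrocortisone, and FBXO32 as well as SGK1 and DDIT4 of the PI3K pathway list are also known targets of the glucocorticoid receptor. Whether the receptor had a part in the differences was not tested. A separate list of such targets, written with earlier results of these data known, was read. Of 17 tested genes, 1 rose and 6 fell with TBX3iso1 and 1 rose and 8 fell with TBX3iso2, with medians of -0.33 and -0.32. The called shares were 41.2% and 52.9%, beside 21.5% and 21.2% of all tested genes. KLF9, a zinc finger factor, fell from 8.99 RPKM in both EV libraries to 3.54 and 3.46 RPKM with TBX3iso1 and to 3.97 and 3.17 RPKM with TBX3iso2. SCNN1A, a subunit of the epithelial sodium channel, fell by 0.79 and 1.55 and ERRFI1, an inhibitor of the EGF receptor, by 1.00 and 1.09 on the log2 scale. ANGPTL4, an inhibitor of lipoprotein lipase, rose from 30.3 and 25.3 RPKM to 103 and 111 RPKM and to 82.3 and 98.2 RPKM. The receptor gene NR3C1 was at 5.07 and 4.55 RPKM in EV, 5.14 and 4.54 RPKM with TBX3iso1, and 5.36 and 4.14 RPKM with TBX3iso2.

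Between the isoforms 3 of the 17 were higher and 2 lower with TBX3iso2, 29.4% of the list beside 6.29% of all tested genes. MAOA, monoamine oxidase A, was at 1.31 and 1.58 RPKM with TBX3iso1 and at 0.139 and 0.214 RPKM with TBX3iso2 (-2.49 ± 0.18, adjusted p = 0.00033, limma). Its TBX3iso2 levels lay near the added 0.1 RPKM, and over 16 alternatives its difference ran from -2.99 to -1.05. SCNN1A differed by -0.77 ± 0.08. NFKBIA, CRISPLD2 and DUSP1 were higher by 0.71 ± 0.09, 0.70 ± 0.11 and 0.66 ± 0.15. The DUSP1 call was lost in 9 of 17 alternatives, including the removal of either EV library, either TBX3iso1 library or TBX3iso2 replicate 1.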
